A study of Mus musculus with 2 samples.

Results

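The 37 genes described here encode lysosomal hydrolases, their activator proteins and lysosomal membrane proteins, most of them known from inherited storage diseases. They were taken by gene symbol from the GENCODE M21 annotation. No measured value entered the rule, but the choice was made with earlier results of these data known. All 37 were found among its 55536 annotated genes, 22015 of which are nuclear protein-coding genes. Their RNA was measured in the chromatin fraction of macrophages grown from the bone marrow of C57BL/6J mice, at 0 minutes of a stimulation with 100 ng/ml lipid A, the part of bacterial endotoxin that is sensed by Toll-like receptor 4. The 2 libraries, replicate 1 from 250 ng of RNA and replicate 2 from 500 ng, form 1 group. The labels call them biological replicates, give both the same donor entry and give no sex or age, so their spread may be technical and the series holds no contrast between conditions.

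A lysosome breaks down lipids, glycans, glycogen and proteins with soluble hydrolases that work in an acidic lumen, and its membrane proteins carry the products out and protect the membrane. Loss of 1 hydrolase, of its activator or of a transporter lets the undigested substrate pile up, and macrophages, which digest cells and lipoproteins that they have engulfed, are among the cells that store most. Many of these genes share the transcription factors of the MiT/TFE family, which bind CACGTG-containing elements. RNA in the chromatin fraction is largely still attached to its template, so it holds many unspliced molecules and differs from the pool of mature mRNA.

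Gene tables summed to 10970767 expected counts (reads per gene, estimated where a read fits several places) in replicate 1 and 14207280 in replicate 2, and 59.0% and 63.8% of the counts of annotated genes lay in nuclear protein-coding genes. All 8 macrophage markers examined, among them Adgre1 and Csf1r, were at 1 TPM or more in both libraries, with summed levels of 767 and 658 TPM (transcript abundance, counts divided by effective length and scaled to a sum of 1000000). None of 38 markers in 9 lists of other cell types was, and their summed levels were 2.66 and 1.30 TPM. The second transcript table gave them more, 21.5 and 27.4 TPM in sum, and put 6 of the 38 at 1 TPM or more in both libraries (Cd3d at 8.34 and 10.8 TPM, and Cd8a, Col1a1, Mpo, Cpa3 and Cd3g between 1.02 and 3.24 TPM). Levels below are TPM of the gene table, given for replicate 1 and then replicate 2, with the mean ± SD (n = 2) where they are summarised.

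Each of the 37 genes reached 1 TPM in both replicates, which 46.7% of nuclear protein-coding genes did. Their median level was 43.4 TPM in replicate 1 and 35.7 TPM in replicate 2, or 39.5 ± 5.40, against 0.720 ± 0.0495 TPM over all nuclear protein-coding genes and 11.1 ± 0.332 TPM over those detected. The middle of the set spanned 12.7 TPM (lower quartile) to 92.8 TPM (upper quartile). A level of 10 TPM in both replicates was reached by 29 of the 37, and by 5197 of the 22015 nuclear protein-coding genes. A level of 100 TPM was reached by 6 of them, Psap, Grn, Laptm5, Cln3, Man2b1 and Lipa, while 1.64% of nuclear protein-coding genes reached it. Together the 37 genes took 0.945% and 0.905% of the counts of nuclear protein-coding genes, and Psap alone held 37.9% and 33.6% of those reads.

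**Figure D1:**
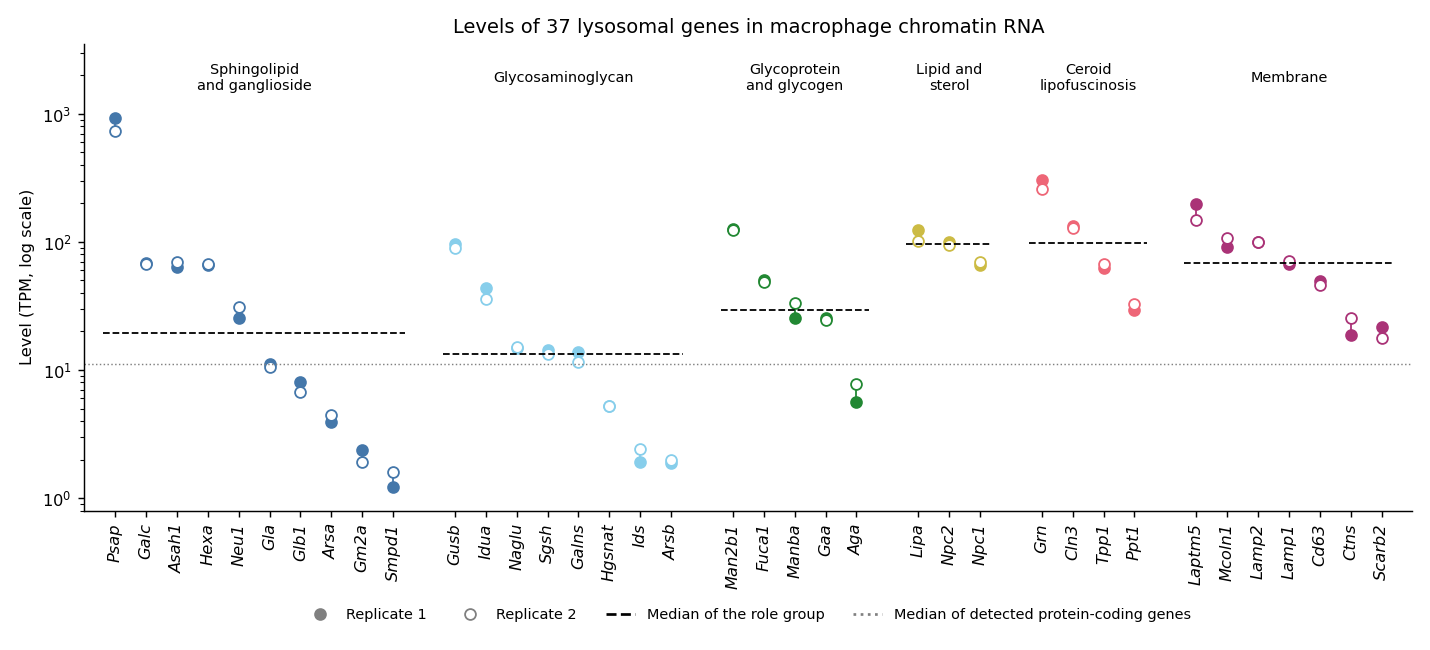
TPM on a log scale for the 37 genes, grouped by role and ordered by mean level, with 1 filled and 1 open point for replicates 1 and 2, a dashed line at each role group's median and a dotted line at the median of detected protein-coding genes. Levels run from Smpd1 at 1.22 and 1.59 TPM to Psap at 931 and 739 TPM, and the 2 points of a gene lie close together next to that range.

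Among the genes of sphingolipid and ganglioside breakdown, 10 in number with a median of 19.5 ± 1.75 TPM, 1 gene stood far above the others. Psap, prosaposin, is cut into the saposins that present sphingolipids to their hydrolases. It stood at 931 and 739 TPM (23124 and 27435 counts) and ranked 5 among all nuclear protein-coding genes by mean TPM. The gene lies on the plus strand at chr10:60277627-60302597 of mm10.

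Annotated Psap transcripts are all protein-coding, and most differ by a short insertion in the coding sequence between the same pair of shared exons. Their sequences are shown because the deposited tables share the reads of this gene among forms that differ by so few bases. Below are the last 20 bases of the upstream exon and the first 20 of the downstream exon, from the GENCODE M21 transcripts (chr10:60295983-60299117, plus strand), with the inserted bases in capitals.
Psap-202: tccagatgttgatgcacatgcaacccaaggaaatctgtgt
Psap-201: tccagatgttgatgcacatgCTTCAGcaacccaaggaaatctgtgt
Psap-204: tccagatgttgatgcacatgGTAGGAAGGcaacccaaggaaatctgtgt
Psap-205: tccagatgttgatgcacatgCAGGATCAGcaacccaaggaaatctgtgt
Psap-203 has the same junction as Psap-202 and starts at another first exon (chr10:60284461-60284531), which lies within the first intron of the other 4. The 6 inserted bases of Psap-201 sit directly before the downstream exon. The 9 of Psap-204 begin directly after the upstream exon (chr10:60296003) but end at chr10:60299046, so they are not 1 unbroken stretch of the genome. The 9 of Psap-205 are other bases, at chr10:60297537-60297545. Parts of the intron of Psap-202 are thus exon in these forms.

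The deposited transcript tables divided Psap in different ways. In the first, made from an alignment to transcripts, the forms with no insertion held 85.9% and 87.8% of the gene's TPM, the 9-base forms 11.4% and 10.8% and the 6-base form 2.75% and 1.45%. In the second, made from the reads and an index of transcripts, the shares were 30.1% and 33.6% with no insertion, 40.9% and 41.1% with 9 bases and 29.0% and 25.4% with 6 bases. Each table gave close values in both replicates, so the gap between the tables, 86.8 ± 1.36% against 31.8 ± 2.45% with no insertion, was far larger than the replicate spread. Psap-202 went from 75.3 ± 0.81% in the first table to 0.48% in the second. Which split is nearer to the RNA was not tested.

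**Figure D2:**
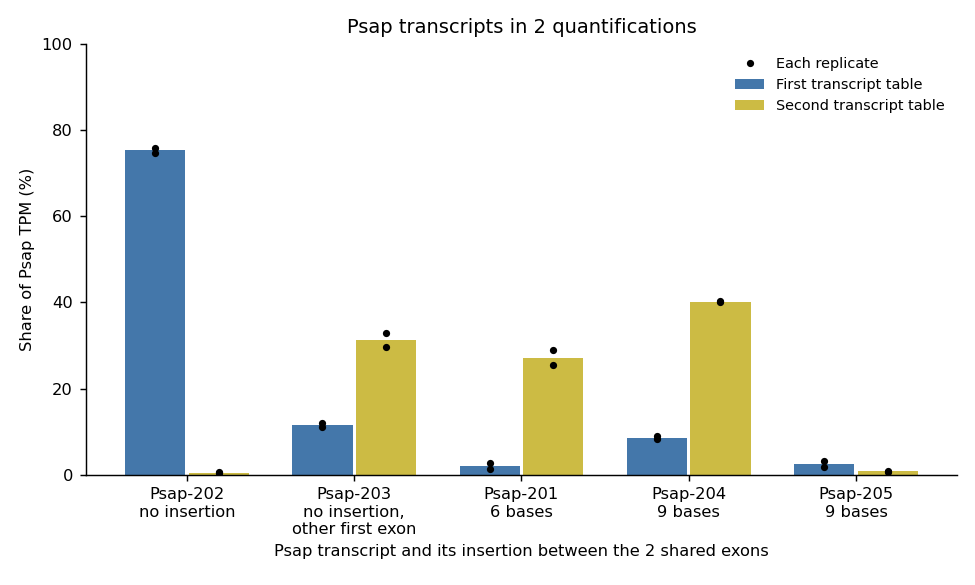
Share of Psap TPM (%) on each of its 5 transcripts in the first and the second transcript table, with bars at the mean and a point for each of 2 replicates. Psap-202 holds the most in the first table (75.3%) and next to nothing in the second, where Psap-204 (40.2%), Psap-203 (31.4%) and Psap-201 (27.2%) lead.

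Next in this group came 3 enzymes with nearly equal levels in the gene table. Galc, which removes galactose from galactosylceramide and is lost in Krabbe disease, stood at 68.7 and 67.2 TPM. Asah1, acid ceramidase, stood at 63.8 and 69.4 TPM. Hexa, the alpha subunit of beta-hexosaminidase that is lost in Tay-Sachs disease, stood at 65.5 and 67.5 TPM. The replicate ranges of the 3 overlapped, so the gene table gives no order among them. On protein-coding transcripts alone Hexa, which has no entry of another type, kept its 65.5 and 67.5 TPM. Galc was at 29.3 and 30.9 TPM on such transcripts and Asah1 at 20.8 and 21.1 TPM. In the second transcript table, rescaled over protein-coding genes, Galc (230 and 234) was below Hexa (300 and 341) and Asah1 (315 and 373). The ranges of Hexa and Asah1 overlapped there. In the gene table Neu1, the lysosomal sialidase, followed at 25.5 and 30.9 TPM. Gla, alpha-galactosidase A of Fabry disease, was close to the median of detected genes at 11.1 and 10.6 TPM. Below it lay Glb1, the beta-galactosidase of GM1 gangliosidosis, at 8.12 and 6.73 TPM. Arsa, the sulfatase of metachromatic leukodystrophy, was at 3.93 and 4.42 TPM on 87.1 and 169 counts. Gm2a encodes the activator that lifts GM2 ganglioside from the membrane for beta-hexosaminidase, and was at 2.36 and 1.91 TPM, against the much higher level of Hexa, whose product it serves. Smpd1, acid sphingomyelinase, had the lowest level of the 37 genes at 1.22 and 1.59 TPM, on 27 and 53 counts.

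Glycosaminoglycan breakdown is a chain of exo-enzymes, and its 8 genes had the lowest median of the 6 role groups in the gene table, 13.3 ± 1.15 TPM. On protein-coding transcripts alone their median was 11.0 TPM, above that of the sphingolipid (8.55 TPM) and glycoprotein (9.59 TPM) groups. Gusb, beta-glucuronidase, was the most abundant at 95.8 and 89.9 TPM. Idua, alpha-iduronidase of Hurler syndrome, followed at 43.4 and 35.7 TPM. Of its 24227 bases, 9342 overlap Dgkq on the opposite strand (124 of them exonic), a gene with 1056 and 1342 counts against 699.8 and 944 for Idua. No source used here says whether the libraries kept strand, so reads of such pairs cannot be told apart. Then came 3 genes at similar levels. Naglu, alpha-N-acetylglucosaminidase, was at 14.9 and 15.1 TPM, Sgsh, heparan sulfamidase, at 14.3 and 13.4 TPM, and Galns, the sulfatase of Morquio syndrome, at 13.8 and 11.5 TPM. Hgsnat, the acetyltransferase that works between Sgsh and Naglu on heparan sulfate, was lower at 5.27 and 5.28 TPM. Thus the enzymes of 1 pathway, lost in the forms of Sanfilippo syndrome, were not at 1 level. The lowest were Ids, iduronate sulfatase of Hunter syndrome, at 1.90 and 2.44 TPM, and Arsb, arylsulfatase B, at 1.89 and 1.97 TPM.

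Glycoprotein and glycogen breakdown was represented by 5 genes with a median of 29.5 ± 5.57 TPM. Man2b1, lysosomal alpha-mannosidase, led at 127 and 124 TPM. Fuca1, alpha-fucosidase, was at 50.4 and 48.9 TPM, and Manba, beta-mannosidase, at 25.5 and 33.5 TPM. The range of Gaa, the acid alpha-glucosidase of Pompe disease, was 24.4 to 25.6 TPM and touched that of Manba. In the second transcript table the median of the 5 was 55.6 TPM. Aga, which splits the link between glycan and asparagine, was lowest at 5.67 and 7.73 TPM.

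Lipid and sterol handling had a median of 96.6 ± 3.74 TPM over 3 genes. Lipa, lysosomal acid lipase, frees cholesterol and fatty acids from lipoproteins and stood at 123 and 101 TPM. Npc2, which takes up the freed cholesterol in the lumen, stood at 99.3 and 94.0 TPM. Npc1, the membrane protein that accepts it from Npc2, was at 66.1 and 69.7 TPM, below the range of the other two. This order to Npc2 rests on the gene table: in the second transcript table, rescaled to 1000000 over protein-coding genes, Npc1 was at 243 and 282 and Npc2 at 262 and 273, and on protein-coding transcripts alone Npc1 (29.1 ± 1.31 TPM) was above Npc2 (18.6 ± 1.96 TPM).

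The genes of neuronal ceroid lipofuscinosis, 4 in number, had a median of 98.2 ± 0.470 TPM. Grn, progranulin, the precursor of granulins that is processed in lysosomes, was the second of the 37 at 302 and 259.8 TPM (chr11:102430315-102437048, plus strand, mm10). Cln3, a lysosomal membrane protein, was at 134 and 128 TPM, and shares 442 exonic bases with Apobr on the opposite strand, a gene with 1101 and 1609 counts against 1241 and 1735. Tpp1, a tripeptidyl peptidase, was at 63.0 and 67.7 TPM. Ppt1, palmitoyl-protein thioesterase, was at 29.2 and 32.6 TPM and shares 129 exonic bases with Cap1. Exonic bases are also shared by Npc1 and Rmc1 (511), Lamp1 and Grtp1 (249), Glb1 and Tmppe (165) and Idua and Slc26a1 (141), all neighbours with more than 250 counts in each library.

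Membrane proteins and transporters had a median of 69.0 ± 2.13 TPM over 7 genes. Laptm5, a lysosomal transmembrane protein of blood cells, read highest at 198 and 149 TPM, although much of that level rested on short transcripts, as described below. Lamp1 and Lamp2 coat the inner face of the membrane with glycans. Lamp2, lost in Danon disease, was at 99.3 and 99.6 TPM, above Lamp1 at 67.5 and 70.5 TPM. Mcoln1, the calcium channel of mucolipidosis, was at 90.9 and 108 TPM, a range that held that of Lamp2. Cd63, a tetraspanin, was at 49.7 and 45.8 TPM. Ctns, the cystine exporter, was at 18.8 and 25.5 TPM, and Scarb2, which escorts glucocerebrosidase to the lysosome, at 21.7 and 17.8 TPM. The ranges of these last genes overlapped.

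Outside the set, 72 further lysosomal genes in 3 lists gave lower medians than the 37. Of the 30 other hydrolases and their helpers 27 were detected, at a median of 21.8 ± 2.21 TPM. Among their highest were Ctsa, the protective protein of Neu1 and Glb1, at 438 and 429.7 TPM, and Lgmn, legumain, at 178 and 153.5 TPM. The lowest were Plbd1 at 0.37 and 0.18 TPM and Acp5, the tartrate-resistant phosphatase of osteoclasts, at 0.08 and 0.18 TPM. Of the 26 other membrane proteins 23 were detected, and their median was 15.7 ± 0.445 TPM. Clcn7, a chloride-proton exchanger, led at 144 and 145 TPM, before Litaf at 81.2 and 66.8 TPM and Mcoln2 at 67.2 ± 1.73 TPM. Laptm4b was at 0.55 and 0.39 TPM, and Lamp3 had 0 counts in both libraries, which allows up to 3 counts (0.274 and 0.212 reads in 1000000). Genes of sorting and enzyme maturation had a median of 18.3 ± 0.795 TPM, and all 16 were detected. Their median was 28.3 TPM in the second transcript table as deposited, which is another scale. With both tables rescaled to 1000000 over protein-coding genes, the median sorting gene was 1.12-fold in the second, with 11 of 16 higher. Gga3 stood at 50.8 and 53.2 TPM, Gga1 at 59.2 and 44.8 TPM and Vps35 at 38.4 and 44.3 TPM, all parts of the traffic of mannose 6-phosphate receptors. Sort1, sortilin, at 6.11 and 3.90 TPM, and Sumf2, a relative of the sulfatase-activating enzyme, at 3.44 and 3.53 TPM, were lowest.

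Replicates differed little in these genes. The log2 ratio of replicate 2 over replicate 1, on expected counts scaled by TMM plus 0.5, could be read in the 36 genes that averaged 50 counts or more (all but Smpd1). It ran from -0.29 to 0.45, and 0 of the 36 passed 2-fold, beside 0.22% of all nuclear protein-coding genes with such counts. The median was 0.06 against 0.02 over all 9109 such genes, with 21 genes above 0 and 15 below (4959 and 4150 over all). On TPM the median was -0.03 against -0.07 over all, so its sign depends on the scale. A total of 26 of the 36 kept their sign in all 7 settings tried (6 ways of scaling or counting reads, and TPM), 16 of them higher in replicate 2 and 10 lower. Most of these settings only rescale the same counts and move all ratios by nearly the same amount. Sign agreement among them therefore mostly follows from a ratio's distance to 0, and the same count over all genes was not made.

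The 5 highest ratios belonged to Arsa (0.45), Ctns (0.41), Aga (0.34), Neu1 (0.32) and Mcoln1 (0.27), with Hgsnat next (0.27). The lowest were Laptm5 (-0.29), Psap (-0.26), Gm2a (-0.23), Lipa (-0.21) and Glb1 (-0.20). Arsa, Aga, Gm2a and Glb1 rest on 80 to 231 counts a library, and Arsa shares 690 exonic bases with an antisense gene, C230037L18Rik, of 67.9 and 105 counts. The replicates also differ in RNA input, so input and biological spread cannot be told apart.

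The gene tables also hold a credibility interval of the posterior mean TPM, whose level is not stated. The 2 intervals did not overlap in 7 of the 36 genes, a share to be read against 8.44% of all genes with such counts. Psap, Grn, Laptm5, Lipa and Scarb2 were lower in replicate 2, and Neu1 and Ctns were higher. For Psap the intervals were 820 to 845 and 672 to 691 TPM, for Ctns 14.7 to 20.5 and 21.2 to 26.9 TPM. Intervals of this kind are computed within a library, narrow as counts grow and hold no spread between samples. The TPM of Psap itself (931 and 739) lies outside the interval around its posterior mean (832 and 682).

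**Figure D3:**
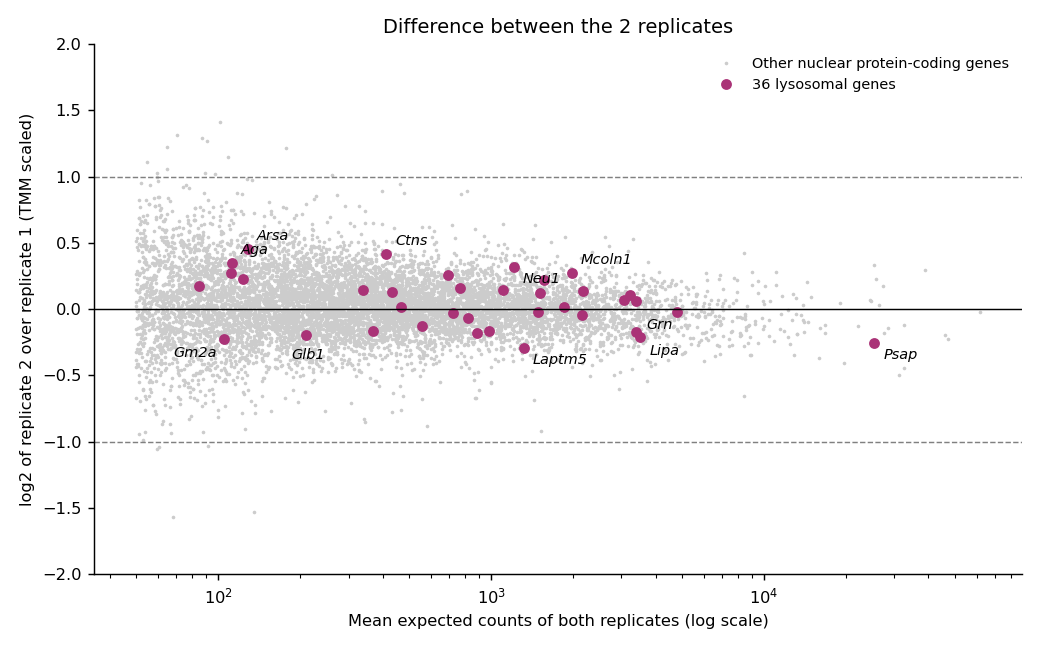
Log2 ratio of replicate 2 over replicate 1 (TMM-scaled expected counts plus 0.5) against mean expected counts on a log scale, with the 36 lysosomal genes as large points, other nuclear protein-coding genes as small grey points and dashed lines at 2-fold. The lysosomal genes lie between -0.29 and 0.45, inside the dashed lines, and 2 of the other genes fall outside the plotted range.

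The first transcript table shows on which annotated transcripts these levels rest. A retained-intron transcript, an entry that keeps an intron and is annotated as non-coding, is listed for 22 of the 37 genes, and 19 of those reached 100 counts in both libraries. Their median share of TPM on such entries was 46.8% in both replicates, against 49.0% over all protein-coding genes under the same minimum. Retained-intron entries held 50% or more in 7 of the 19, beside 48.1% of all such genes. By reads instead of TPM the median was 41.5% against 31.2%. Chromatin RNA holds many unspliced molecules. Whether reads on retained-intron entries came from these or from finished transcripts was not tested, so shares by type are not shares of mature mRNA.

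Neu1 was the extreme, with 94.2% and 95.0% of TPM on retained-intron transcripts. Its transcript Neu1-202, of 3619 bases, took 842 and 1491 of the gene's 876 and 1547 counts, while the protein-coding Neu1-201 took 34.1 and 53.2. So a gene at 25.5 and 30.9 TPM had only 1.47 and 1.54 TPM assigned to its protein-coding transcript. Neu1 lies at chr17:34931253-34935953 (plus strand, mm10).

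Npc2 (79.9% and 81.7%) and Tpp1 (78.6% and 80.6%) came next, then Grn (60.2% and 58.3%) and Asah1 (54.9% and 60.3%). Mcoln1 (51.3 ± 3.33%) and Man2b1 (50.8 ± 0.408%) lay just inside the 50% line, and Npc1 (49.3 ± 2.43%) and Ctns (47.8 ± 1.36%) just outside, closer than the spread of Mcoln1 and Npc1. The smallest shares were those of Scarb2 (20.1 ± 3.15%), Lamp2 (21.6 ± 0.178%), Manba (21.8 ± 5.47%), Cln3 (30.5 ± 1.44%) and Cd63 (35.2 ± 5.12%), with Lipa at the same 35.2%. By reads the order changed, and retained-intron entries held 63.7% of the reads of Cd63 and 51.8% of those of Lipa. As a description over these 19 genes, which share their libraries, Spearman's rho was -0.55 between the span of the gene and the share, and 0.11 between level and share.

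In Grn the 60.6% of reads on the full protein-coding transcript Grn-201 (2340 bases) made up 27.4 ± 0.790% of TPM, because several retained-intron entries of 444 to 921 bases took more TPM per read. Npc2 shows the same on Npc2-202, a retained-intron entry of 728 bases with 11.0% of reads and 39.3% of TPM. Arsa had 78.9% on retained-intron entries, from fewer than 100 counts in replicate 1, and Hgsnat and Smpd1 were also under the count minimum.

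Over all types, 30 genes reached 100 counts in both libraries, and protein-coding transcripts held a median of 46.7 ± 0.299% of their TPM, against 50.5 ± 1.01% over all nuclear protein-coding genes. The protein-coding share was below 50% in 16 of the 30, beside 49.3% of all genes. Psap, Hexa and Gla have no annotated entry of another type, so all their TPM lay on protein-coding ones. Galns, which has 1, also had all its TPM on protein-coding entries here, but 91.0% and 75.1% in the second transcript table. Counting TPM on those entries alone, 34 of the 37 genes still reached 1 TPM in both replicates, and Arsa, Arsb and Smpd1 did not. Of all 22015 nuclear protein-coding genes, 9288 reached 1 TPM in this way.

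**Figure D4:**
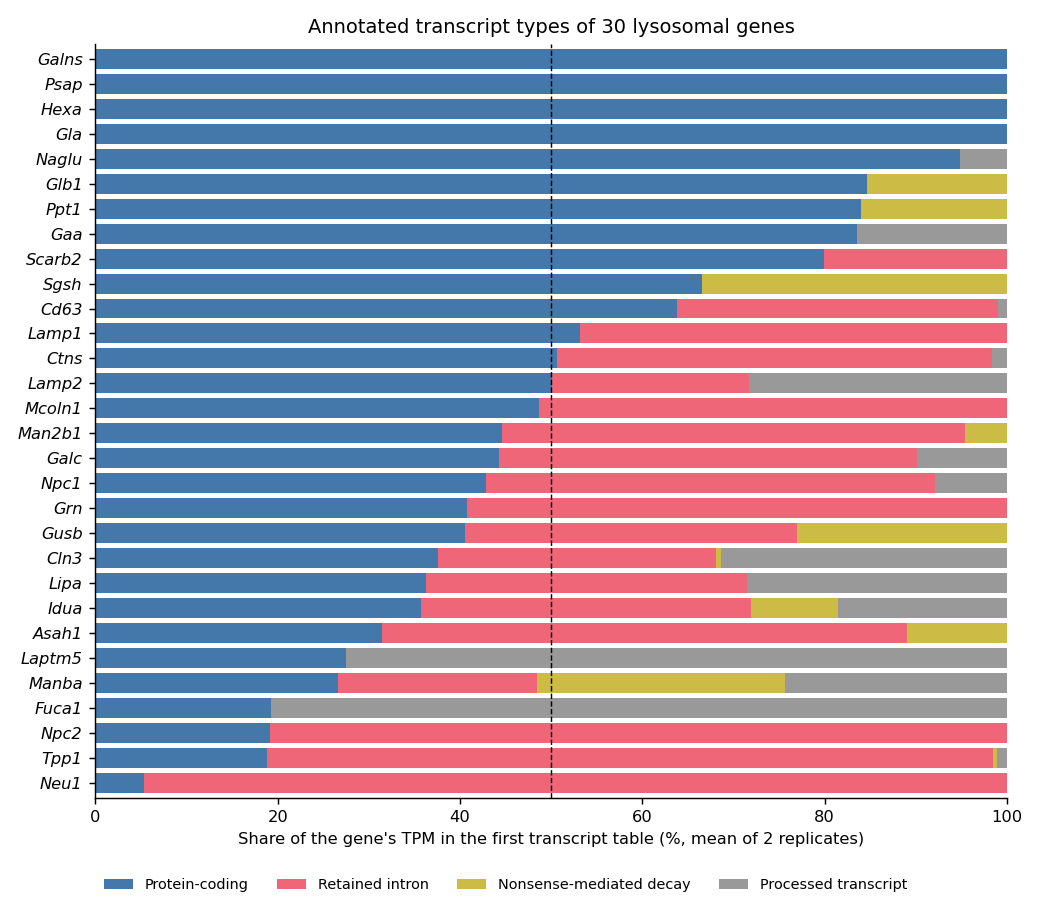
Share of TPM (%) on protein-coding, retained-intron, nonsense-mediated decay and processed transcripts for the 30 genes that reached 100 counts in both libraries, as the mean of 2 replicates in the first transcript table, with a dashed line at 50%. The bars run from 100% protein-coding for Psap and Hexa, which have no annotated transcript of another type, to 5.37% for Neu1.

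Laptm5 and Fuca1 had no retained-intron entry, yet little TPM on protein-coding ones (27.5 ± 2.49% and 19.3 ± 0.530%). The rest lay on short processed transcripts. Laptm5-203, of 397 bases, held 43.1% of TPM with 11.6% of reads, while the protein-coding Laptm5-207 (2600 bases) held 75.7% of reads and 19.4% of TPM. Fuca1-204, of 628 bases, held 52.7% of TPM with 27.8% of reads. Expected counts were therefore also divided by the length of each gene's principal protein-coding transcript, a choice made after these values were seen. On that scale Laptm5 went from rank 3 to 15 among the 37, Cln3 from 4 to 18 and Cd63 from 18 to 7, while Psap and Grn stayed first and second. The median of the sphingolipid group, below that of the glycoprotein group on TPM, was above it on this scale (37.9 against 23.9 counts per kilobase and 1000000 counts of protein-coding genes). Over the 37 genes Spearman's rho between the scales was 0.92.

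The second transcript table, summed per gene, gave another level for each gene. After both were rescaled to 1000000 over nuclear protein-coding genes, 1 of the 36 genes was 2-fold apart in both replicates, beside 5.19% of all genes with such counts. Gla was 2.17-fold and 2.31-fold higher in the second table. Its short transcript Gla-202 (337 bases) held 66.2% of the gene's TPM there and 18.1 ± 5.35% in the first table, on 0.837% of reads. By reads alone Gla was 1.38-fold and 1.36-fold higher. Hgsnat was 2.17-fold higher in replicate 1 and 1.91-fold in replicate 2, and its 489-base Hgsnat-202, with 3 counts in each library of the first table, went from 18.3% to 52.4% of TPM.

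Manba (1.57-fold), Gaa (1.5-fold) and Ctns (1.41-fold) were also higher in the second table. Cd63 (0.559-fold), Smpd1 (0.594-fold) and Man2b1 (0.632-fold) were lowest. Over the 36 genes the median was 0.884-fold, beside 0.936-fold over all, with 14 genes higher in the second table. Of all 9109 genes with such counts, 3914 were higher there. The replicate difference of Psap keeps its sign after this rescaling (2705 and 2318 in the second table) but not in its TPM as deposited there (683 and 859). In that table nuclear protein-coding genes held 25.2% of the deposited TPM in replicate 1 and 37.1% in replicate 2. Its deposited TPM of such genes are therefore not on the same scale in both replicates.

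**Figure D5:**
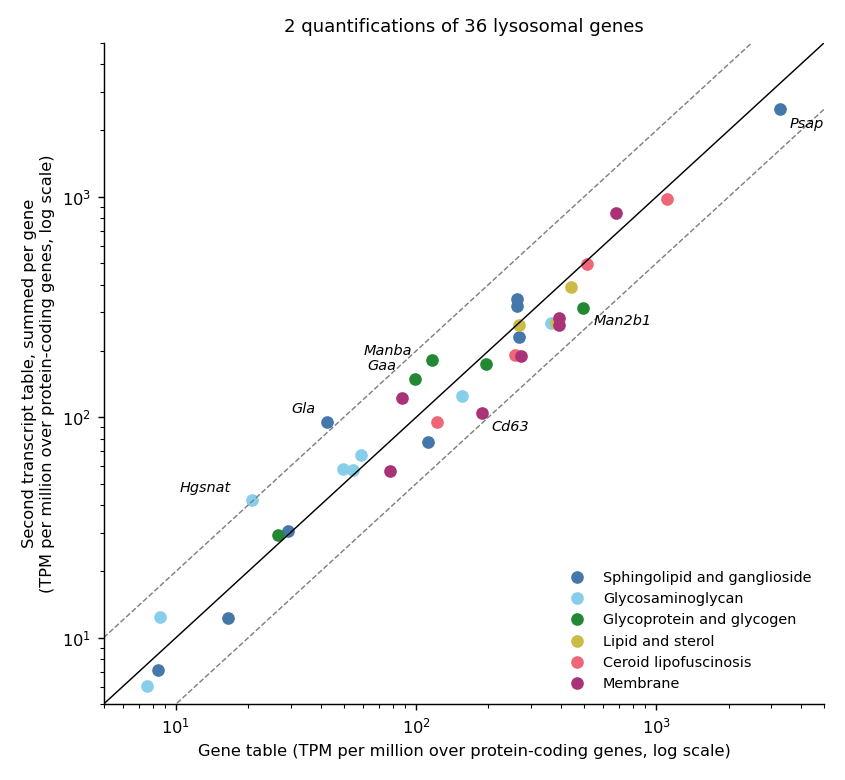
Level in the second transcript table against the gene table, both as TPM rescaled to sum to 1000000 over nuclear protein-coding genes, on log axes, mean of 2 replicates, for 36 genes coloured by role, with a solid line at equality and dashed lines at 2-fold. Gla lies above the upper dashed line and Hgsnat on it, and Cd63 is near the lower one.

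Promoter sequence was read from RefSeq windows (GRCm38.p6) that run from 250 bases before to 50 after each annotated start. A window was found for 32 of the 37 genes, and not for Asah1, Hgsnat, Galns, Aga and Npc1. CACGTG, which reads the same on both strands, was present in 9 of the 32 (28.1%), in 14 of the 56 other lysosomal genes with a window (25%) and in 8.09% of all 27025 genes of the table. All 9 had it before the RefSeq start, where the share of all genes was 6.86%. With a flanking T or A, that is TCACGTG on either strand, the count was again 9, against 4.29% of all genes. These shares of all genes cover the 27025 genes with a window and are not limited to protein-coding genes, as the comparisons above are. Lamp1 had 4 matches, Cln3, Mcoln1 and Gla had 2 each, and Glb1, Naglu, Gaa, Sgsh and Arsa 1 each.

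The following 40-base stretches, 5′ to 3′ on the strand of the gene, show 1 match each in capitals, and that of Lamp1 also holds in lower case its match at -45. They come from a membrane protein, a channel, a ceroid lipofuscinosis gene and hydrolases of 3 roles, so that flanks and distances can be compared. Distances are to the RefSeq start, and the matches shown for Cln3, Mcoln1 and Naglu lie inside the GENCODE M21 spans of these genes.
Cln3 (chr7:126583335-126583374, minus strand, match beginning at -121 from the start): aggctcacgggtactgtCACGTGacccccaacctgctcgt
Mcoln1 (chr8:3500457-3500496, plus strand, at -45): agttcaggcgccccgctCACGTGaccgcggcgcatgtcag
Lamp1 (chr8:13159083-13159122, plus strand, at -61): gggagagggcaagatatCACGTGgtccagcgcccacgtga
Naglu (chr11:101070004-101070043, plus strand, at -73): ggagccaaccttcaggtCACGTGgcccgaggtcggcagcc
Gaa (chr11:119267806-119267845, plus strand, at -140): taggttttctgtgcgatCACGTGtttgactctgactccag
Gla (chrX:134601177-134601216, minus strand, at -194): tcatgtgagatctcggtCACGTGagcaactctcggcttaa

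The 9 genes with a match had a median level of 15 TPM (4.18 to 131) and the 23 without one 49.6 TPM (1.41 to 835). Psap, Grn, Laptm5, Man2b1 and Lipa, 5 of the 6 genes at 100 TPM or more, had no match in this window, and Cln3 had 2. A match is a description of letters, and binding was not measured.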

How the data were processed

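Total RNA-seq of ribosome-depleted chromatin-fraction RNA was available as 3 tables for each of 2 libraries of 1 group. Per the file headers and the deposited notes, the authors made a gene table and a first transcript table (columns in the layout of RSEM) from an alignment to GENCODE M21 transcripts on mm10, and a second transcript table (layout of kallisto) from the reads and an index. The tools, their versions and the strandedness were not stated in the labels, headers or notes. Expected counts, as deposited, are estimates and not whole, and the deposited TPM divide them by effective length and sum to 1000000 per table. The deposited bounds of the credibility interval belong to the posterior mean TPM.

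Computed here were means and SDs, shares of each gene's TPM by annotated transcript type, and log2 ratios of TMM-scaled expected counts plus 0.5. The scaling factors were fitted on counts of annotated genes, rounded to whole numbers and filtered for low counts (edgeR 4.0.16, R 4.3.3, with DESeq2 1.42.0 as an alternative). A gene was called detected at 1 TPM in both replicates. Ratios required a mean of 50 counts and shares 100 counts in each replicate. With 1 group no test was run. Entries that are not annotated genes (26345 of the gene table, 0.338% and 0.270% of counts) were left out. Counting limits cover counting error only. Promoter windows came from RefSeq (GRCm38.p6), and 34 of the 35 windows of these genes matched a transcript of the gene on the stated strand, 0 on the other. Python 3.11.15, numpy 2.4.6, pandas 2.3.3 and matplotlib 3.10.9 were used. The scaling and ratio steps were tested on simulated data.

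The 37 genes and all gene lists were chosen with earlier results of these data known. Named were all 37 genes, the 3 highest and 2 lowest of each list of other lysosomal genes (1 of these is not reported here), the 5 highest and lowest ratios and retained-intron shares, and genes 2-fold apart between the tables. Genes named as overlapping neighbours, and Hgsnat and Lipa where they follow a group of 5, were chosen after their values were seen, as was the count of genes by protein-coding share with its alternatives.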

Additional observations from a re-analysis of the deposited data

How the results depend on the processing

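All 37 genes were detected under posterior mean TPM, after rescaling to protein-coding genes and in either library alone, 36 in the second transcript table (Smpd1 missed 1 TPM), 32 at 5 TPM and 29 at 10 TPM. The median level was 45.5 TPM in the second transcript table as deposited and 155 after rescaling TPM to 1000000 over nuclear protein-coding genes. Both are other scales. Nuclear protein-coding genes held 26.2% and 24.6% of TPM in the gene table, and 25.2% and 37.1% in the second transcript table. With both tables rescaled, the median gene was 0.884-fold in the second, with 14 of 36 higher. In the gene table the libraries alone gave 35.7 TPM (replicate 2) and 43.4 TPM (replicate 1). The median log2 ratio turned to -0.033 on TPM and lay between 0.06 and 0.19 in the other scalings. The count past 2-fold was 0 in each. Retained-intron entries held 50% or more in 6 to 8 genes across 6 settings (of 19 genes, or 22 at 10 counts), though not in the same genes: 4 of the 7 (Neu1, Npc2, Tpp1, Mcoln1) also did so by reads and in the second table, Grn and Man2b1 did not by reads, and Asah1 and Man2b1 did not in the second table, while Galc, Lipa and Cd63 entered by reads and Ctns in the second table. Protein-coding entries held under 50% in 16 or 17. Of genes 2-fold apart between the tables there were 2 on TPM as deposited (Gla, Hgsnat), 0 on counts and, in either library alone, 1 to 2. With 2 libraries of different RNA input and 1 group, no difference between them can be assigned to biology, and genes under 100 counts are known least well. No paired analysis was possible because there is 1 group.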

Other observations

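Of the 63 genes in the lists of other lysosomal genes that averaged 50 counts or more, 1 passed 2-fold between the replicates. Over all nuclear protein-coding genes with such counts it was 20 of 9109 (0.22%). Arsk, an arylsulfatase that removes sulfate from glucuronate in glycosaminoglycans, stood at 3.19 and 9.04 TPM on 82 and 271 counts, a log2 ratio of 1.22. In the second transcript table it had 293 and 575 counts and a TMM-scaled log2 ratio of 0.49, so it did not pass 2-fold there. The level and the log2 ratio of the 36 genes of the main set that could be compared had a Spearman's rho of -0.36, beside -0.10 over 9109 nuclear protein-coding genes, as a description over genes that share their libraries.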
